A study of Mus musculus with 3 samples.

Results

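Ventral prosensory otic epithelium was taken as 2437 cells among 8019 otic epithelial cells, in single-cell RNA data from mouse otic vesicles at E10.5, a stage in days of embryonic development. The otic cells were themselves a part of 26130 cells that passed a quality filter, out of 37301 barcodes. A cell counted as otic when it had at least 1 unique molecular identifier (UMI, a tag on each captured transcript) of the epithelial gene Epcam and at least 2 UMIs summed over Fbxo2, Hmx2, Hmx3 and Pax2. It also had to have at most 1 UMI of the mesenchyme genes Prrx1 and Twist1, and 0 of the neuroblast gene Neurog1. It counted as ventral prosensory when at least 4 of 6 markers (Brip1, Shisa2, Rorb, Itih5, Irx3 and Irx5) had at least 1 UMI. Those genes chose the cells, so their levels are given below as a description, and the otic cells with fewer than 4 markers (5582 cells) form the comparison population.

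The group called CD was 1 library of pooled vesicles with the genotype Sox9Y440X/+, with 1 allele of the transcription factor gene Sox9 carrying a stop codon. The wild-type group (WT) was 2 libraries of pooled vesicles, replicates 1 and 2. The labels name no Cre driver, transgene or drug for either group. A 3′ tag counts transcripts of both Sox9 alleles together and does not read the changed codon, so the Sox9 level does not check the genotype. The number of embryos per pool is not given in the sources used here. No label ties the WT pools to separate litters. The p-values therefore reflect only how far these samples lie apart, which may be technical, and the CD pool and the CD genotype cannot be told apart.

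The otic vesicle is the epithelial sac that forms the whole inner ear. Its ventral part gives rise to the neurons of the ear ganglion and to prosensory patches, which are known for Sox2, Jag1 and Lfng and later form hair cells and supporting cells. The dorsal part forms the endolymphatic duct and the vestibular canals. SOX9, SOX10 and SOX8 are related DNA-binding proteins, and in cartilage SOX9 drives collagen and other matrix genes. By its title, the study concerned opposed SOX9 and Wnt activity in the otocyst and the part of SOX10 in endolymphatic development.

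The libraries held 186439890 UMIs in CD, against 157373393 and 202584468 UMIs in WT. The CD library gave 729 ventral prosensory cells, against 781 in WT replicate 1 and 927 in WT replicate 2. Their median depth was 28095 UMIs in CD, against 30841 and 21243 UMIs in WT. The other otic cells were shallower, at 19590.5 UMIs in CD, against 21685 and 16518 UMIs in WT. The libraries shared 28, 55 and 41 barcodes in the pairs CD with WT replicate 1, CD with WT replicate 2 and the WT pair, of which 0, 1 and 0 were ventral prosensory. The WT replicates differed well beyond counting noise in these cells (chi-square of 23.4 per degree of freedom for 15680 genes) and were therefore not the same library deposited again. The median mitochondrial share was 3.54% in CD, against 2.31% and 3.38% in WT.

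Ventral prosensory cells made up 30.1% of otic cells in CD (95% exact binomial interval 28.3 to 32.0), against 34.6% (32.7 to 36.6) in WT replicate 1 and 27.7% (26.2 to 29.3) in WT replicate 2. The CD share lay between the WT shares. The rule counts markers that were detected, so it follows depth, and each cell was therefore also thinned at random to 10000 UMIs before the rule was applied. Then the share was 14.5% in CD (12.8 to 16.3), against 18.1% (16.2 to 20.1) and 19.5% (17.98 to 21.2) in WT. At this depth the CD share lay below both WT shares. Of all cells past the filter, thinning left out 1727 of CD, 993 of WT replicate 1 and 3164 of WT replicate 2 as too shallow. Intervals cover counting error only, and 1 library against 2 cannot give a permutation p under 0.333, so no test was run on the shares.

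**Figure D1:**
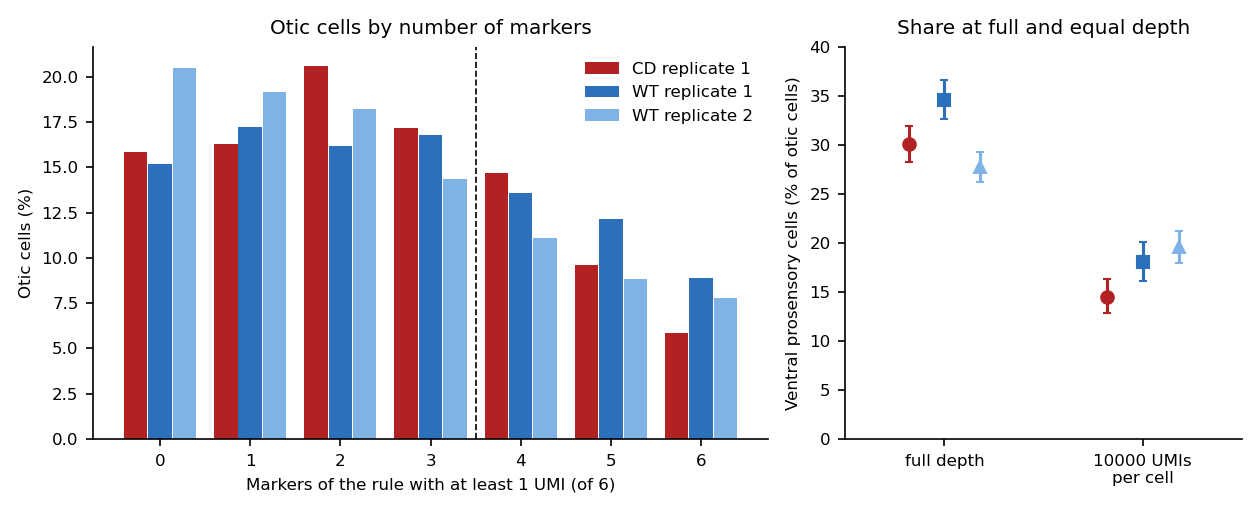
Left, percent of otic cells (bars) with each number of the 6 markers detected, by library, with a dashed line at the threshold between 3 and 4 markers. Right, percent of otic cells that met the rule at full depth and after thinning to 10000 UMIs per cell, with 95% exact binomial intervals; CD lies between the WT libraries at full depth (30.1% against 34.6% and 27.7%) and below both at equal depth (14.5% against 18.1% and 19.5%).

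The number of detected markers showed no gap at the threshold. Cells with 4 markers, just inside it, numbered 355 in CD, against 307 and 371 in WT. Cells with 3 markers, just outside, numbered 416 in CD, against 379 and 480 in WT. Sox2, which encodes a transcription factor of prosensory and progenitor cells, was at 130 CPM (UMIs of a gene scaled to equal library totals) with 4 markers and 113 CPM with 3 in CD. In WT replicate 1 it was at 126 CPM with 4 markers and 101 CPM with 3, and in WT replicate 2 at 106 CPM and 96.6 CPM. Over the whole range from 0 to 6 markers, Sox2 ran from 55.6 to 173 CPM in CD, against 42.9 to 151 CPM in WT replicate 1 and 44.97 to 145 CPM in WT replicate 2. Lfng, a modifier of Notch receptors, ran from 4.19 to 39.4 CPM over the same range in CD, against 3.19 to 35.9 CPM and 5.32 to 29.8 CPM in WT. Oc90, the main protein of the otoconial matrix, ran the other way, from 283 to 17.0 CPM in CD, against 1333 to 140 CPM and 2081 to 336 CPM in WT. Median depth ran the same way as Sox2, from 14950 to 30452 UMIs in CD, against 17613 to 32609.5 and 13714 to 22697.5 UMIs in WT, and its part in these gradients was not tested.

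**Figure D2:**
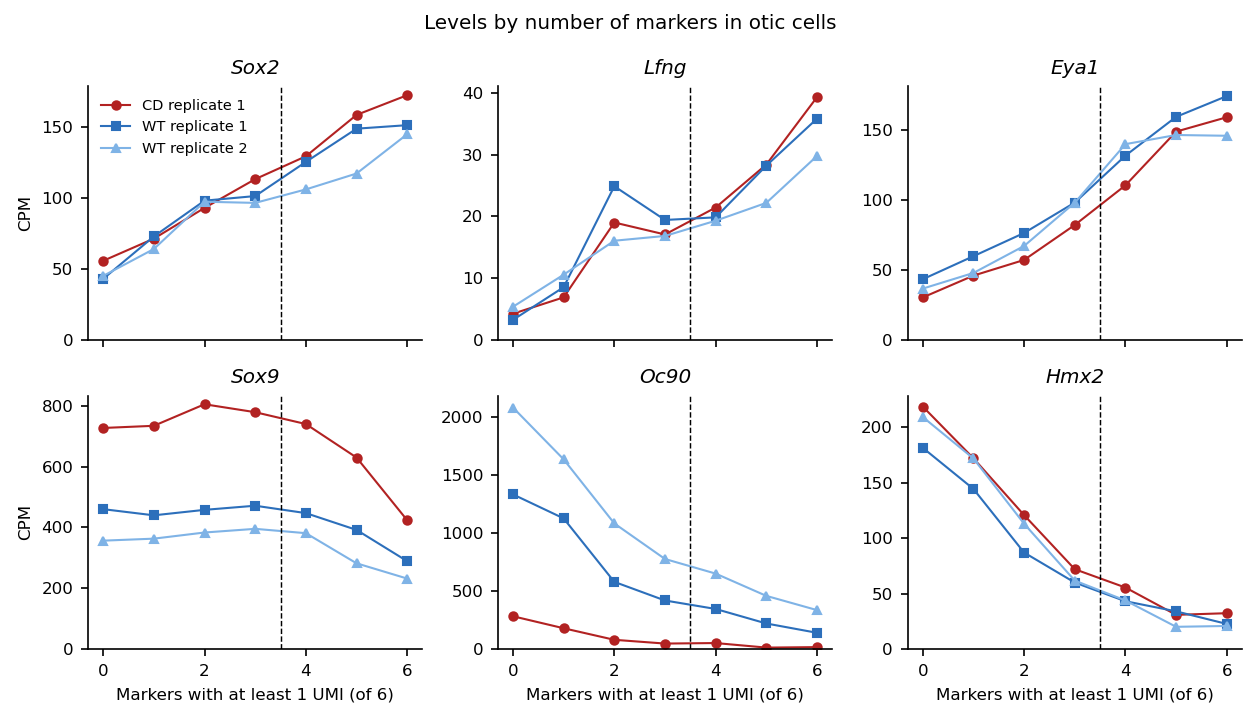
Level (CPM, linear axes from 0) of 6 genes in otic cells grouped by how many of the 6 markers were detected, 1 line per library, with the threshold of the rule dashed. Sox2, Lfng and Eya1 are higher and Oc90, Hmx2 and Sox9 lower at 6 markers than at 0 in all 3 libraries, and Sox9 stays nearly level up to 4 markers.

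The label was checked against prosensory genes that the rule did not use, as the log2 ratio of ventral prosensory over other otic cells, with 1 CPM added, in each library. These are the same cells that were chosen, so no test applies. Of 20 genes in a list of prosensory and neurosensory genes, 10 were higher and 8 lower in all 3 libraries, where 31.1% of all 15980 genes were higher and 28.3% were lower in all 3. The higher genes included Sox2 (0.73 ± 0.067, SD over 3 libraries), Lfng (0.89 ± 0.11), Jag1, Sox21, Sox3, Hey1, Hes1, Hey2 and Eya1. Hey2, a Notch effector, stood at 15.9 CPM in ventral prosensory cells of CD, against 5.27 CPM in its other otic cells, and the pairs in WT were 13.5 against 4.83 CPM and 15.9 against 4.59 CPM. Eya1, which encodes a transcriptional co-activator of otic growth, had a ratio of 1.16 ± 0.073. The 8 lower genes were Tbx3 (-1.08), Fgf16 (-0.83), Fgf3 (-0.66), Bmp4 (-0.65), Lrp2 (-0.54), Prox1 (-0.38), Fgf9 (-0.26) and Eya2 (-0.20). Fgf10, a ligand of ventral otic cells, was level (-0.0043 ± 0.16), and Isl1 had no common direction. In the summed cells Sox2, Lfng and Jag1 thus fitted the label, and Bmp4, Fgf3, Fgf9 and Fgf16, ligands on the same list, did not. Parts of the cells differed in Sox2 and Lfng, as given with the sub-clusters below.

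The 6 markers were higher because the rule chose for them. Rorb, a nuclear receptor, had a ratio of 3.98 ± 0.39, followed by Itih5 (3.02), Shisa2 (2.31), Irx5 (2.07), Brip1 (1.88) and Irx3 (1.74). Brip1 is also on the list of S-phase genes of the cell cycle. Of 20 such genes outside the rule, 13 were higher in all 3 libraries (median 0.14), as were 13 of 20 G2/M genes (median 0.14), where 31.1% of all genes were. Among the Iroquois transcription factors outside the rule, Irx6 was higher by 2.17 ± 0.28, with 8.77 CPM in CD ventral prosensory cells, against 1.65 CPM in the other otic cells of CD. Irx1 (0.74 ± 0.013) and Irx2 (0.74 ± 0.036) were also higher in all 3 libraries, and Irx4 was close to absent in both populations, at 0 CPM in ventral prosensory cells of CD and of WT replicate 1 and 0.268 CPM in those of WT replicate 2, against 0.513, 0.140 and 0.320 CPM in the other otic cells. Of the genes that defined otic cells, Pax2 was higher (1.14 ± 0.068), Hmx2 (-1.83 ± 0.33) and Hmx3 (-1.43 ± 0.24) were lower, Fbxo2 differed by about its spread (0.26 ± 0.23), and Epcam was nearly equal (-0.087 ± 0.049).

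Outside the 6 markers, 49 of 15980 genes were at least 1 log2 unit higher in all 3 libraries (0.307%) and 118 were at least 1 unit lower (0.738%). With cells thinned to equal depth these counts were 48 and 192, and 39 of the higher genes were the same. Apart from the markers, high ratios belonged to the non-coding RNA Crnde (1.98 ± 0.10), the otolith collagen gene Otol1 (1.81 ± 0.076), Fam107a (1.67), the metal ion transporter gene Slc39a8 (1.61) and Cyp26a1, which encodes an enzyme that breaks down retinoic acid (1.60). Next came Sfrp1, a secreted Wnt antagonist (1.52 ± 0.067), the transcription factor gene Sall1 (1.46), the steroid enzyme gene Hsd11b2 (1.46) and the Wnt receptor gene Fzd7 (1.43). The low ratios belonged to Sema3e, a semaphorin (-2.37), the ligand Bmp3 (-2.35), Msx2, a target of bone morphogenetic proteins (-2.32), the carbonic anhydrase Car4 (-2.28), Col14a1 (-2.27) and Fxyd3 (-2.13). Prss56 (-2.04), the semaphorin receptor Nrp2 (-1.996), Plxna4 (-1.90), Anxa2 (-1.88), Lsamp (-1.85), Mgll (-1.82), Ifitm3 (-1.75) and Cited1 (-1.68) followed.

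**Figure D3:**
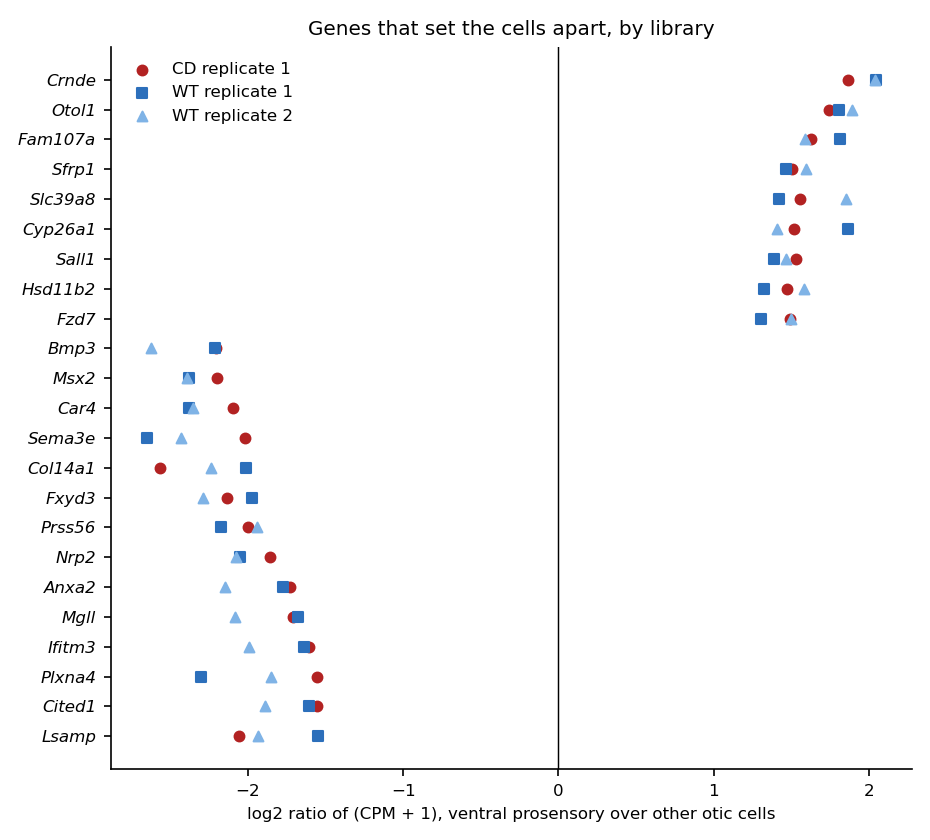
Log2 ratio of (CPM + 1), ventral prosensory over other otic cells, in CD replicate 1 and WT replicates 1 and 2 (1 marker each), for the genes outside the rule with the most extreme ratio shared by all 3 libraries. Each gene plotted has the same sign in the 3 libraries, with Crnde and Otol1 at the top and Bmp3, Msx2 and Car4 among the lowest.

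Genes of the dorsal and endolymphatic vesicle were lower as a group: 15 of 17 were lower in all 3 libraries and 10 of them by at least 1 log2 unit, with Hmx2 and Hmx3 of the rule among the 17. Among them were the homeobox genes Dlx5 (-1.59 ± 0.31) and Dlx6 (-1.27 ± 0.27) and the retinol dehydrogenase gene Rdh10 (-1.68 ± 0.25), all named after their values were seen. Oc90 was lower by 1.72 ± 0.23 log2 units in ventral prosensory cells. Of 14 proneural genes measured, 1 was higher in all 3 libraries (Dcx, 0.93 ± 0.44) and 4 were lower, where 31.1% and 28.3% of all genes were. Their median was -0.19, and Neurod1 had a ratio of -0.62 ± 0.33. The rule had removed cells with Neurog1 from both populations. Sox9 was lower by 0.27 ± 0.035 log2 units, while Sox10 (-0.097 ± 0.17) and Sox8 (-0.0021 ± 0.090) differed by less than their spread over the libraries.

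The cells were not uniform. Clustering gave 13 sub-clusters, named here by their leading genes. The largest (435 cells) was led by Prr15, Gbx2, Wnt6 and Pou3f3 and took 25.1% of the ventral prosensory cells of CD, against 18.1% and 11.97% in WT. The next (374 cells) was led by Otx2, Gsc and Otx1, with 13.0% in CD, against 19.7% and 13.5% in WT. Its Sox2 level was 55.0 CPM in CD, against 76.5 and 55.3 CPM in WT. The other otic cells had 85.3 CPM in CD, against 83.0 and 78.0 CPM in WT. Lfng was at 6.54 CPM in CD, against 12.9 and 4.71 CPM in WT, and in the other otic cells at 12.9 CPM in CD, against 15.2 and 12.6 CPM in WT. This sub-cluster thus went against the label for both genes. A sub-cluster of 333 cells was led by Ube2c, Nusap1 and Lfng, with the growth factor genes Fgf20 and Gdnf, and another of 268 cells by Slamf1, with the cyclin genes Ccne1 and Ccne2 and histone genes. In the sub-cluster led by Ube2c, Sox2 was at 262 CPM in CD, against 266 and 196 CPM in WT. Plxna4, Sema3e and Tgfb2 led 267 cells, although Plxna4 and Sema3e were low in ventral prosensory cells as a whole. Gal, Ntf3 and Bdnf, with Crnde and Otol1, were among the leading genes of 263 cells. A sub-cluster led by Clu, Igfbp5, Fst and Rorb held 255 cells, 5.21% of CD, against 5.51% and 18.8% in WT, so the WT replicates themselves were far apart. These sizes were not tested, since the genes that defined the sub-clusters also differed between libraries.

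Among the smaller sub-clusters, one of 90 cells had a median depth of 11425 UMIs, one of 64 cells was led by the neuronal genes Nefm, Nefl, Stmn2 and Neurod1, and one of 44 cells by Nrp2, Fxyd3, Rdh10 and Msx2, which were lower in ventral prosensory cells as a whole. A further 3 were led by erythroid genes (23 cells), endothelial genes (12 cells) and macrophage genes (9 cells). Together these 3 held 16 cells of CD, against 10 and 18 cells of WT. Their median depths were 50574, 55989.5 and 59691 UMIs, higher than in every other sub-cluster. The caller Scrublet marked 22 ventral prosensory cells of CD as doublets (3.02%), against 19 (2.43%) and 26 (2.80%) in WT, and the rule keeps them. In the other otic cells the doublet shares were lower in each library, at 1.36% in CD, against 1.97% and 1.74% in WT.

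Sox9 RNA was higher in the CD library, past the threshold by DESeq2 and not by edgeR. It stood at 621 CPM in CD, against 390 and 309 CPM in WT, a log2 change of 0.83 ± 0.17 (SE; edgeR adjusted p = 0.449, DESeq2 adjusted p = 0.00969, over all genes), and the CD value was above both WT values. In the other otic cells Sox9 was called by both, at 747 CPM in CD, against 460 and 384 CPM in WT (0.83, edgeR adjusted p = 0.00818, DESeq2 adjusted p = 0.000515). After thinning to 5000 UMIs per cell, Sox9 was detected in 87.9% of ventral prosensory cells of CD (85.3 to 90.2), against 74.9% (71.7 to 77.9) and 68.5% (65.4 to 71.5) in WT. The unthinned shares were 98.2% in CD, against 96.2% and 95.8% in WT. Barcodes chosen for Prrx1 and Twist1 UMIs (the mesenchyme genes) also held Sox9, in 71.7% of thinned CD barcodes, against 59.2% and 57.3% in WT, and give no background for it.

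Sox10, the close relative of Sox9 in otic cells and neural crest, was at 60.7 CPM in CD, against 111 and 129 CPM in WT, a log2 change of -0.98 ± 0.16 (SE; edgeR adjusted p = 0.259, DESeq2 adjusted p = 0.000467). Its thinned share was 25.1% in CD (21.99 to 28.4), against 41.1% (37.6 to 44.6) and 44.1% (40.9 to 47.4) in WT, and in Prrx1/Twist1 barcodes 1.17%, 1.29% and 2.40%. Unthinned, the shares were 70.5% in CD, against 90.7% and 86.3% in WT, and 4.05%, 5.70% and 8.43% in those barcodes, whose median depths were 19604.5, 20835 and 17529 UMIs. Sox8 was at 4.06 CPM in CD, against 8.90 and 7.58 CPM in WT, a log2 change of -1.02 ± 0.26 (SE; edgeR adjusted p = 0.659). Sox2 differed by less than its SE, at 145 CPM in CD, against 143 and 123 CPM in WT (0.13, SE 0.15). Sox2 was detected in 45.7% of thinned CD cells, against 45.7% and 39.5% in WT, with 1.29%, 2.26% and 1.67% in Prrx1/Twist1 barcodes. The unthinned Sox2 shares were 80.7% in CD, against 84.6% and 72.1% in WT.

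Of 14978 genes tested between CD and WT in ventral prosensory cells, edgeR called 3 at an adjusted p of 0.05 (0.0200%), 1 higher (0.00668%) and 2 lower (0.0134%) in CD. An unadjusted p under 0.05 was reached by 571 of the 14978 genes in edgeR, a share below the 0.05 that would pass with no effect on any gene. DESeq2 called 31 of 21204 genes (0.146%), 6 higher (0.0283%) and 25 lower (0.118%), including all 3. Among the 25 was Itih5, a marker by which the rule chose the cells, so its call is no finding. The lower genes called by edgeR were Cnmd and Fxyd3 and the higher gene was the globin gene Hbb-bs. In the other otic cells edgeR called 79 of 15912 genes (0.496%), 29 higher and 50 lower. The counts were made with unequal information: the spread borrowed across genes counted for a median of 6.37 prior degrees of freedom in ventral prosensory cells and 16.9 in the other otic cells. The WT pair alone supplies the 1 residual degree of freedom.

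Cnmd, which encodes the cartilage glycoprotein chondromodulin, fell in CD. It was at 23.6 CPM in CD, against 134 and 175 CPM in WT, a log2 change of -2.71 ± 0.22 (SE; edgeR adjusted p = 0.0249). The groups did not overlap, and the WT replicates lay close to each other. Cnmd was detected in 7.54% of thinned CD cells (5.73 to 9.71), against 36.5% (33.1 to 40.0) and 45.1% (41.9 to 48.4) in WT, and in 0.324%, 0.647% and 1.10% of Prrx1/Twist1 barcodes. Unthinned, the shares were 23.7% in CD, against 72.0% and 71.6% in WT.

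Fxyd3, a small regulator of the sodium pump, fell to 2.14 CPM in CD, against 13.9 and 14.5 CPM in WT, a log2 change of -2.73 ± 0.24 (SE; edgeR adjusted p = 0.0338). Its CD level rests on 50 UMIs in 24 cells, with 13 of them in 1 cell. Without the erythroid, endothelial and macrophage sub-clusters the log2 change was -2.66 (edgeR adjusted p = 0.0527), and by the newer quasi-likelihood method of edgeR it was -2.73 (edgeR adjusted p = 0.0696), so the value barely moved while the call was lost. DESeq2 called it (adjusted p = 1.65e-07). In thinned cells Fxyd3 had 0 UMIs in CD and an adjusted p of 0.120 (edgeR). Fxyd3 was also called in the other otic cells, at 12.8 CPM in CD, against 57.4 and 75.2 CPM in WT (-2.38).

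Hbb-bs, an adult beta globin, rose to 33.6 CPM in CD, against 5.74 and 4.28 CPM in WT, a log2 change of 2.74 ± 0.21 (SE; edgeR adjusted p = 0.0249). Of its 787 CD UMIs, 65.1% lay in 3 cells. Without the 3 sub-clusters of other cell types its log2 fold change was 1.06 (edgeR adjusted p = 1.00), and without Scrublet doublets 0.595 (edgeR adjusted p = 0.999). The call was also lost with at least 3 markers (1.88, edgeR adjusted p = 0.0571) and in thinned cells (1.55, edgeR adjusted p = 1.00). All 7 haemoglobin genes were above both WT values in CD, where 33.1% of all genes tested were. The erythroid markers summed to 9097 CPM in CD, against 3339 and 6562 CPM in WT, and their part in the other results was not tested.

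Genes of the otolith matrix and cartilage had mostly negative values in CD, with few calls. All 8 otolith and membrane matrix genes tested had negative values, with a median log2 fold change of -1.05, against -0.00014 over all genes tested, and edgeR called 0 of them and DESeq2 2. Oc90 was at 31.1 CPM in CD, against 249 and 501 CPM in WT, a log2 change of -3.59 ± 0.43 (SE; edgeR adjusted p = 0.0923, DESeq2 adjusted p = 0.0145). The WT replicates lay far apart for Oc90, and CD was below both. It was called by edgeR in thinned cells, with equal cells per library and with at least 3 or at least 5 markers. Oc90 was detected in 51 of 729 thinned CD cells (5.25 to 9.10%), against 32.7% and 46.7% in WT, but also in 1.04%, 4.42% and 15.4% of Prrx1/Twist1 barcodes, so its background was highest in WT replicate 2. Unthinned, those shares were 19.8% in CD, against 63.4% and 72.6% in WT, and 3.67%, 16.2% and 42.3% in the barcodes. Otol1, the collagen-like otolin of otoliths, was at 37.6 CPM in CD, against 78.0 and 88.3 CPM in WT, a log2 change of -1.14 ± 0.17 (SE; edgeR adjusted p = 0.192, DESeq2 adjusted p = 4.73e-05).

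Of 14 cartilage and SOX9-bound matrix genes, edgeR called 1, Cnmd, 10 were below both WT values (71.4%, against 30.8% of all genes tested), and the median was -0.44, with 3 lower by DESeq2. Col9a3 and Col9a1, chains of collagen IX, were at 31.7 CPM in CD, against 68.8 and 85.0 CPM in WT, and at 62.5 CPM in CD, against 104 and 137 CPM in WT. Their log2 fold changes were -1.28 and -0.95, with edgeR adjusted p = 0.192 and 0.484 and DESeq2 adjusted p = 1.81e-05 and 0.00710. Bricd5 was at 3.55 CPM in CD, against 15.1 and 17.0 CPM in WT (-2.18, edgeR adjusted p = 0.0780, DESeq2 adjusted p = 1.75e-05). Gjb2, the gap junction gene connexin 26, was at 2.09 CPM in CD, against 7.51 and 7.44 CPM in WT (-1.83, edgeR adjusted p = 0.192, DESeq2 adjusted p = 0.154). Bricd5, Col9a3 and Col9a1 were named after their values were seen.

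**Figure D4:**
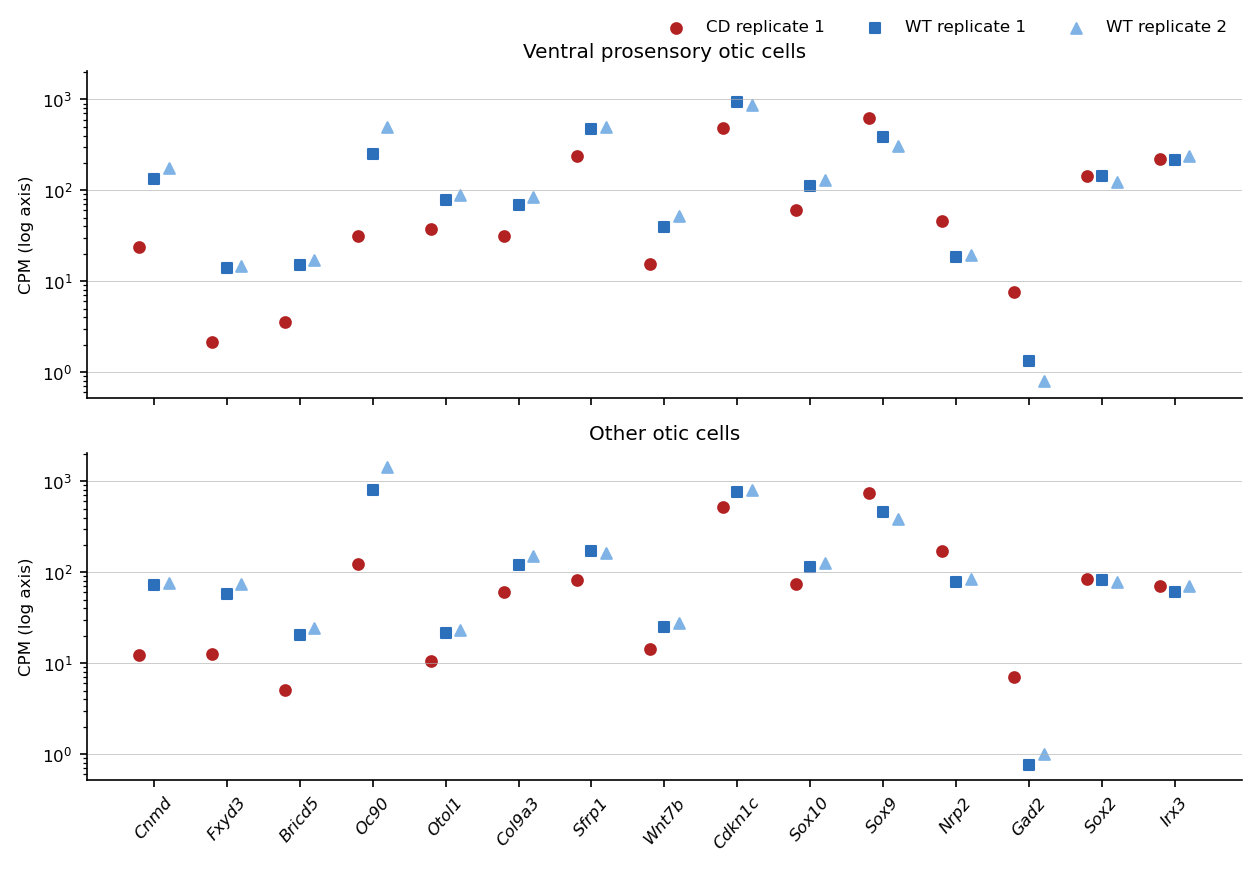
Level (CPM, log axis) of 15 genes in CD replicate 1 and WT replicates 1 and 2, in ventral prosensory cells (top) and in other otic cells (bottom). Cnmd, Fxyd3, Bricd5, Oc90, Otol1, Col9a3, Sfrp1, Wnt7b, Cdkn1c and Sox10 are lowest in CD in both panels, Sox9, Nrp2 and Gad2 are highest in CD, and Sox2 and Irx3 nearly coincide.

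Wnt targets had mostly positive and Wnt antagonists mostly negative values. Of 18 Wnt/beta-catenin targets, 14 had positive values, the median was 0.30, 14 were above both WT values (77.8%, against 33.1% of all genes tested) and none was called by edgeR. Notum, a target that also inactivates Wnt ligands, was at 7.13 CPM in CD, against 3.87 and 2.54 CPM in WT, a log2 change of 1.15 ± 0.32 (SE; edgeR adjusted p = 0.810). Lef1, a Wnt effector, was at 39.1 CPM in CD, against 27.7 and 22.9 CPM in WT (0.63, SE 0.18). Of 12 Wnt antagonists, Notum included, 9 were negative (median -0.40). Sfrp1 was at 236 CPM in CD, against 471 and 491 CPM in WT, a log2 change of -1.02 ± 0.14 (SE; edgeR adjusted p = 0.191, DESeq2 adjusted p = 3.14e-07), with the CD value below both. Wnt7b, a Wnt ligand, was at 15.5 CPM in CD, against 39.1 and 52.3 CPM in WT, a log2 change of -1.56 ± 0.22 (SE; edgeR adjusted p = 0.192, DESeq2 adjusted p = 1.44e-05), and Wnt5a, a ligand of the other branch of Wnt signalling, at 34.5 CPM in CD, against 19.6 and 20.3 CPM in WT, a log2 change of 0.79 ± 0.16 (SE; edgeR adjusted p = 0.444).

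Other genes with high or low values in CD were Nrp2, at 46.3 CPM in CD, against 18.3 and 19.4 CPM in WT, a log2 change of 1.30 ± 0.15 (SE; edgeR adjusted p = 0.0923, DESeq2 adjusted p = 0.000698), and Cdkn1c, an inhibitor of cyclin-dependent kinases, at 485 CPM in CD, against 934 and 863 CPM in WT, a log2 change of -0.89 ± 0.14 (SE; edgeR adjusted p = 0.237, DESeq2 adjusted p = 2.57e-05). In thinned cells edgeR also called Cdkn1c. Gad2, which makes the transmitter GABA, was at 7.56 CPM in CD, against 1.31 and 0.802 CPM in WT (2.82, edgeR adjusted p = 0.122, DESeq2 adjusted p = 0.0181). Of 20 axon guidance genes 18 were positive (median 0.24), edgeR called 0 and DESeq2 called Nrp2. Rxrg, a retinoid X receptor, was at 9.01 CPM in CD, against 23.9 and 34.2 CPM in WT (-1.69, edgeR adjusted p = 0.192, DESeq2 adjusted p = 0.000125). Otx2, a head patterning gene, was at 24.9 CPM in CD, against 48.1 and 60.2 CPM in WT (-1.12, edgeR adjusted p = 0.284, DESeq2 adjusted p = 0.00308). Sst, the hormone somatostatin, had 9.06 CPM in CD, against 0.338 and 0.891 CPM in WT, but 208 of its 212 CD UMIs lay in 1 cell. Cuedc2 was at 140 CPM in CD, against 321 and 461 CPM in WT (-1.48, edgeR adjusted p = 0.199, DESeq2 adjusted p = 1.1e-08). Cuedc2, Gad2, Rxrg, Otx2 and Sst were named after their values were seen. Of the 31 genes DESeq2 called, 21 were also called by edgeR in the other otic cells.

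The 6 markers decided which cells were compared, so their levels in CD and WT are a description. They were among the genes tested, and the DESeq2 call of Itih5 is not used as a result. Brip1, a DNA helicase, was at 184 CPM in CD, against 149 and 150 CPM in WT (0.31), and Shisa2 at 94.5 CPM in CD, against 74.1 and 85.0 CPM in WT (0.25). Irx3 was at 220 CPM in CD, against 216 and 240 CPM in WT, and Irx5 at 171 CPM in CD, against 150 and 183 CPM in WT. Itih5, a hyaluronan-binding protein gene, was at 48.0 CPM in CD, against 76.6 and 106 CPM in WT (-0.93). Rorb was at 42.0 CPM in CD, against 37.7 and 109 CPM in WT, so the WT replicates lay farther apart than the genotypes. The otic genes of the rule gave -1.22 for Fbxo2, 0.36 for Hmx2, 0.12 for Hmx3, -0.18 for Pax2 and 0.027 for Epcam.

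The prosensory list held 16 positive and 4 negative values of 20 (median 0.14) and 0 calls. Fgf16, at 2.90 CPM in CD, against 0.638 and 0.624 CPM in WT, had the smallest p (2.19, edgeR adjusted p = 0.444), and Bmp4 (0.66) and Prox1 (0.54) came next. The other values ran from -0.43 for Eya2 to 0.29 for Lrp2. Among them were Lfng (0.074), Jag1 (0.18), Eya1 (-0.21), Tbx3 (-0.35), Sox21 (0.25), Isl1 (0.22), Hes1 (0.23), Fgf10 (0.15), Fgf9 (0.11), Fgf3 (0.17), Hey1 (0.049), Hey2 (0.11) and Sox3 (-0.14). The Iroquois genes not in the rule gave -0.11 for Irx1, 0.014 for Irx2 and -0.22 for Irx6.

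In the remaining lists of otic patterning, signalling and cell state, edgeR called 0 genes beyond Fxyd3 in the ion transport list. Positive values numbered 15 of 21 in the BMP list, 17 of 19 in the FGF list, 14 of 18 in the Notch list, 5 of 11 among Hedgehog targets, 5 of 15 among retinoic acid genes and 9 of 23 among hereditary deafness genes, where 7488 of all 14978 genes were positive. The smallest p in each belonged, with its log2 fold change, to Tubb3 (-0.52) and Neurod1 (-0.57) among proneural genes, Msx2 (0.87) and Msx1 (0.67) among dorsal genes, Pou3f3 (0.53) and Sall3 (0.79) among medial genes and Meis2 (0.61) among crista genes. They were Il17rd (0.34) in the FGF list beside Fgf16, Notch3 (0.37) and Heyl (0.48) in the Notch list, Hhip (-1.21) and Gli1 (-0.43) among Hedgehog targets and Aldh1a3 (-0.65) and Crabp1 (0.54) among retinoic acid genes. Slit2 (0.48), Fn1 (0.48) and Cdh2 (0.54) led axon guidance after Nrp2 and adhesion, and Ccne1 (-0.49), Top2a (0.25), Cenpf (0.26), Btg2 (0.40), Jun (0.38), Dusp1 (0.42), Asns (-0.34) and Herpud1 (-0.24) the cell cycle, cell cycle exit, stress and unfolded protein lists.

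Markers of other cell types differed between the libraries as well, and their part in the results was not tested. The endothelial markers had 9 of 10 positive values (median 0.88) and summed to 57.9 CPM in CD, against 39.2 and 47.6 CPM in WT, with Kdr (1.22) and Flt1 (1.09) of smallest p. The macrophage markers summed to 20.6 CPM in CD, against 7.74 and 33.3 CPM in WT, with Cx3cr1 (1.55) and Tyrobp (-0.60). Mesenchyme markers summed to 98.7 CPM in CD, against 47.3 and 88.4 CPM in WT, with Prrx2 (0.94) and Postn (-1.11), and neural tube markers to 40.7 CPM in CD, against 31.7 and 29.4 CPM in WT, with Pax3 (-1.17) and Nkx2-2 at 0 in all 3 libraries. Neural crest and glia markers, which include Sox10, summed to 182 CPM in CD, against 272 and 299 CPM in WT. Neuronal markers summed to 203 CPM in CD, against 136 and 326 CPM in WT, with Neurog1 at 0 by the rule, and surface ectoderm markers to 623 CPM in CD, against 635 and 716 CPM in WT, with Krt14 at 0, Krt19 (-0.68) and Perp (-0.61). Mitochondrial genes were positive in 12 of 13 (median 0.27) and ribosomal protein genes negative in 84 of 92 (median -0.17).

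CD and WT were also compared within sub-clusters. In the 8 sub-clusters where each library had 20 or more cells, CD was below both WT values in 8 of 8 for Cnmd, Fxyd3, Oc90, Otol1, Bricd5, Sox10, Sfrp1, Wnt7b, Cdkn1c, Col9a3, Col9a1 and Rxrg. For Sox8 this held in 6 of 8 and for Otx2 in 4 of 8. CD was above both WT values in 8 of 8 for Sox9, Gad2 and Rmst and in 7 of 8 for Nrp2. Most of these genes were named for their values in the same cells summed, and the share over all genes was not computed. Some of these counts rest on few UMIs: Fxyd3 had 3 or fewer in CD in 7 of the 8, and Otx2 in 3. In the smallest of the 8, with 90 cells, Gad2 had 1 UMI in CD, against 0 and 0 in WT, and Rmst 3 UMIs in CD, against 0 and 0 in WT. In the Otx2/Gsc sub-cluster Cnmd stood at 72.5 CPM in CD, against 304 and 392 CPM in WT. In the Clu/Igfbp5 sub-cluster, it stood at 105 CPM in CD, against 375 and 353 CPM in WT. Sox9 ranged from 376 to 829 CPM over the sub-clusters of CD, against 201 to 506 CPM over those of WT. The 8 sub-clusters share 3 libraries and are no replicates of each other.

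**Figure D5:**
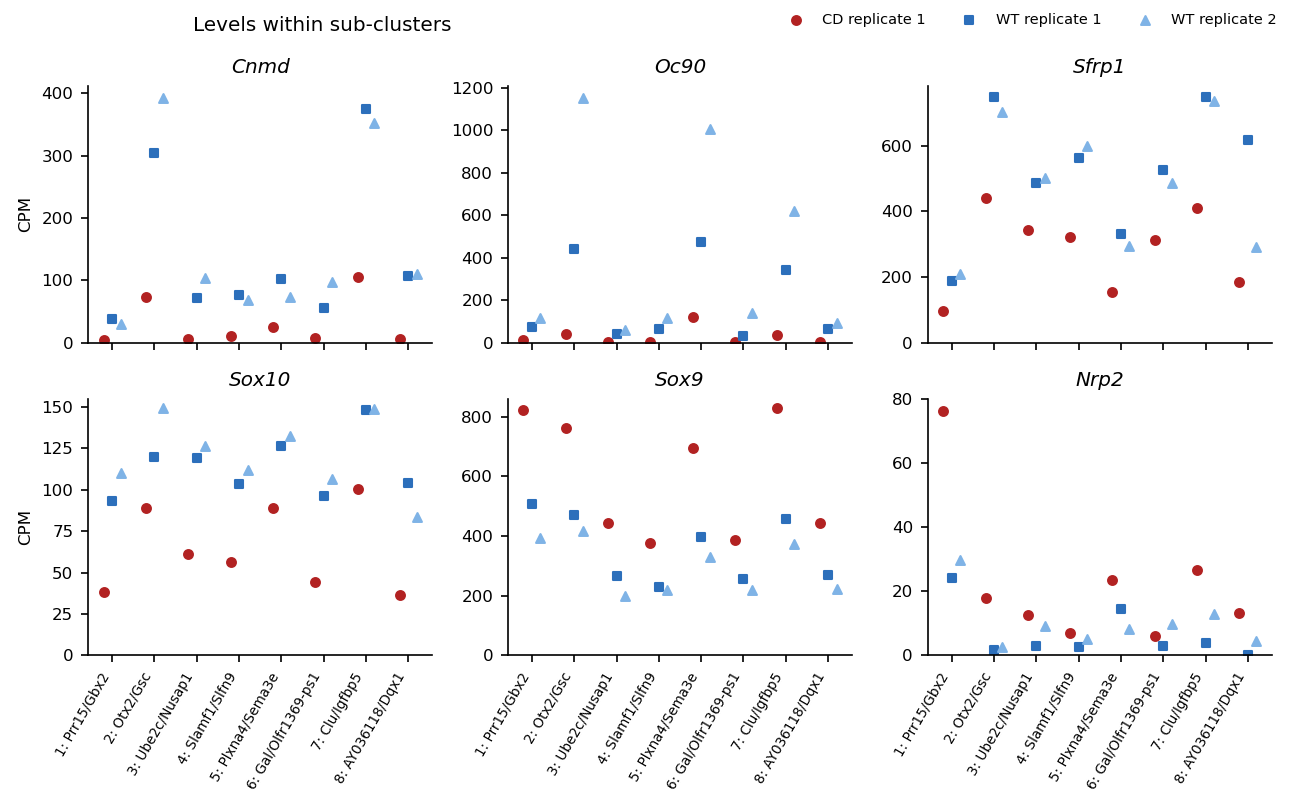
Level (CPM, linear axes from 0) of 6 genes in the 8 sub-clusters where each library had 20 or more cells, each named by 2 leading genes, in CD replicate 1 and WT replicates 1 and 2. Cnmd, Oc90, Sfrp1 and Sox10 lie lowest in CD in each of the 8 and Sox9 lies highest, while Nrp2 is highest in CD in 7 of 8.

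An interaction term, fitted with a block for each library, tested whether the CD effect differed between ventral prosensory and other otic cells. It called 177 of 15986 genes (1.11%), 89 higher (0.557%) and 88 lower (0.550%). Fbxo2 and Hmx2, which the rule used to choose otic cells, were among these calls and are no findings. DESeq2 called 3 of 22971 genes (0.0131%), Ccl3 and Sst among them, with Ccl3 named after its values were seen. The prior degrees of freedom were infinite, so the spread of each gene between WT replicates was not used, and 135 of the 177 exceeded that spread. Erythroid, endothelial and macrophage markers made up 15 of the calls, of 30 such genes tested. Without the 3 sub-clusters of those cells the count was 22 of 15965 genes (0.138%), 12 higher (0.0752%) and 10 lower (0.0626%), all among the 177. Cells were left out of the ventral prosensory sums only. The sums of the other otic cells were unchanged, with erythroid markers at 6698 CPM in CD, against 4982 and 6778 CPM in WT. In that fit the prior degrees of freedom had a median of 15.9. Of the 155 calls lost, 143 kept their sign and 103 moved by no more than 0.1 log2 units.

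Several of the genes low or high in CD were not called in the interaction. Fxyd3 gave -0.37 (SE 0.20), Cnmd -0.13 (SE 0.10, edgeR adjusted p = 1.00), Otol1 -0.064 (SE 0.11), Sfrp1 -0.018 (SE 0.072) and Sox9 0.012 (SE 0.072). A p above the threshold does not show that they were equal. The CD effect was more negative in ventral prosensory cells for Sox10 (-0.29, SE 0.077, edgeR adjusted p = 0.0215), Oc90 (-0.39, SE 0.089, edgeR adjusted p = 0.00232) and Cdkn1c (-0.28, SE 0.075, edgeR adjusted p = 0.0183). Without the sub-clusters of other cell types their values were close to these, at -0.28 for Sox10, -0.35 for Oc90 and -0.31 for Cdkn1c, but no longer passed the threshold (edgeR adjusted p = 0.267, 0.267 and 0.131). Pou3f3 was still called (0.68, edgeR adjusted p = 0.00941). It was a leading gene of the largest sub-cluster, which held 25.1% of ventral prosensory cells of CD, against 18.1% and 11.97% in WT. The part of those shares in its value was not tested. Pou3f3, a POU-domain transcription factor gene, was at 53.7 CPM in CD, against 39.3 and 35.2 CPM in WT, in ventral prosensory cells, and at 17.2 CPM in CD, against 19.6 and 18.5 CPM in WT, in the other otic cells (0.68, SE 0.11, edgeR adjusted p = 3.5e-07).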

How the data were processed

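Pooled otic vesicles were dissociated and sequenced with a Chromium 3′ kit (v3.1), per the labels' protocols. The authors deposited UMI counts per gene and barcode, made with Cell Ranger 6.0 on mm39 per the submitters' processing notes, with version 6.0.0 per the file headers. These counts hold 32285 features. Barcodes needed 1000 genes or more and a mitochondrial share of 10% or less, doublets were kept, and the rule given above was applied. The members and gene lists were chosen with earlier results of these data known.

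UMI counts were summed per library and population and compared by the quasi-likelihood F test of edgeR 4.0.16 (filterByExpr, TMM, Benjamini-Hochberg adjustment over all genes tested, threshold 0.05) in R 4.3.3. The interaction used 6 sums with the library as a block. SE is the log2 fold change over the square root of F. CPM of single genes between CD and WT and between populations use TMM-scaled totals. CPM by marker number and sub-cluster, summed marker levels and population ratios in thinned cells use plain totals. Sub-clusters came from scanpy 1.11.5 with leidenalg 0.10.2. The tests were also run on simulated sums with the same fixed spread for all genes. Such sums cannot show how the tests behave at the spread of these libraries. Named genes were those of the rule, Sox9, Sox10, Sox8 and Sox2, all members of the prosensory and Iroquois lists, the largest called changes with at least 10 CPM, and the genes of smallest p in each list, with other names marked in the text. Some genes that met this rule are not reported here. Alternatives were DESeq2 1.42.0, RLE scaling, no gene filter, other marker and quality thresholds, no doublets, thinned or equal cells and leaving out each WT library.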

Additional observations from a re-analysis of the deposited data

Results flagged for a closer look

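For 17 named genes the CD effect differed between ventral prosensory and other otic cells by the edgeR interaction test, and the size of that difference is given here in log2 units, with a positive value where CD over WT was higher in ventral prosensory cells. Of them, 9 were still called without the erythroid, endothelial and macrophage sub-clusters, and 1 was called by DESeq2 (Sst, adjusted p = 0.0118). Those sub-clusters were left out of the ventral prosensory sums only, and the other otic sums were unchanged.

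The 9 were Rmst (1.05), Egr1 (0.80), Crym (0.79), Pou3f3 (0.68), Sst (4.88), Elavl3 (-1.18), Wnt4 (-0.99), Dcx (-0.81) and Hs3st6 (-0.80). Crym was at 95.1 CPM in CD, against 62.9 and 71.0 CPM in WT, in ventral prosensory cells, and at 49.8 CPM in CD, against 51.3 and 70.4 CPM in WT, in the other otic cells. For Sst, 208 of 212 CD UMIs lay in 1 cell. The neuronal genes Elavl3 and Dcx changed sign when cells were thinned to 10000 UMIs. Of the 9, only Egr1 and Hs3st6 were called in thinned cells, and only Crym, Egr1, Hs3st6 and Sst with at least 5 markers. Rmst and Pou3f3, and Smoc1 below, were leading genes of the largest sub-cluster (25.1% of CD, against 18.1% and 11.97% in WT). Elavl3 was a leading gene of the neuronal sub-cluster (1.51% of CD, against 2.82% and 3.34% in WT). Within sub-clusters, Rmst in CD was above both WT values in 8 of 8. The part of the sub-cluster shares in these values was not tested.

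The 8 that were not called without those sub-clusters were Zfp36 (0.88), Ak1 (0.79), Smoc1 (0.74), Cited4 (0.74), Isl2 (-0.77), Wnt7b (-0.67), Ebf3 (-0.64) and Samd5 (-0.63). Without them Cited4 stood at 0.17, while the others stood at 0.71 for Zfp36, 0.78 for Ak1, 0.76 for Smoc1, -0.76 for Isl2, -0.67 for Wnt7b, -0.69 for Ebf3 and -0.61 for Samd5, close to the values above with larger adjusted p (0.0832 to 0.366, edgeR). Samd5 alone of these 8 was called in thinned cells, and none was called with at least 5 markers.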

How the results depend on the processing

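The count of genes called between CD and WT in ventral prosensory cells (3) was 191 with no gene filter, 31 by DESeq2, 19 with at least 3 markers, 6 with at least 5 markers, 5 in thinned cells, 9 with equal cells per library and 1 (Cnmd) without the erythroid, endothelial and macrophage sub-clusters. Cnmd was called in 12 of 12 settings with a test (adjusted p 1.44e-39 to 0.0416). The same count in other otic cells (79) was 257 with no gene filter, 48 by DESeq2, 31 with at least 5 markers, 31 in thinned cells and 135 with equal cells. For the interaction (177) it was 3 by DESeq2, 77 with at least 3 markers, 19 with at least 5, 23 in thinned cells and 22 without the 3 sub-clusters. The newer quasi-likelihood method and the setting without those sub-clusters were chosen after seeing the data.

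The share of ventral prosensory cells was 47.3% in CD, against 51.4% and 42.1% in WT, with at least 3 markers, 15.4% in CD, against 21.0% and 16.6% in WT, with at least 5, and 14.5% in CD, against 18.1% and 19.5% in WT, in thinned cells. Thinning raised the genes at least 1 log2 unit lower from 118 to 192. Unthinned shares of cells with a UMI were 98.2% in CD, against 96.2% and 95.8% in WT, for Sox9, 70.5% in CD, against 90.7% and 86.3% in WT, for Sox10, and 80.7% in CD, against 84.6% and 72.1% in WT, for Sox2.

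Signs turned for genes with no call in ventral prosensory cells. With at least 5 markers these were Irx3 (0.0031), Hmx3 (-0.088), Fgf3 (-0.15), Sox3 (0.015), Eya2 (0.011) and Tyrobp (0.86). In thinned cells they were Fgf10 (-0.054), Fgf3 (-0.92), Eya2 (0.46), Hey1 (-0.057), Hey2 (-0.039), Irx1 (0.067), Irx2 (-0.057), Irx6 (0.36), Neurod1 (0.81) and Asns (0.11). Kdr (-0.0085) and Flt1 (-0.86) turned without doublets, and Flt1 (-0.22) without the 3 sub-clusters. Among interaction values, Cited4 (-0.13) turned with at least 3 markers and Elavl3 (0.31) and Dcx (0.34) in thinned cells. Leaving out either WT library gave -1.38 to 0.15 for Rorb, -0.13 to 0.023 for Irx3, -0.094 to 0.20 for Irx5, -0.051 to 0.11 for Epcam, -0.031 to 0.19 for Lfng, -0.011 to 0.33 for Fgf10, -0.14 to 0.59 for Jag1, -0.32 to 0.082 for Sox3 and -0.19 to 0.77 for Isl1. It gave -0.054 to 0.16 for Hey1, -0.0017 to 0.23 for Hey2, -0.073 to 0.11 for Irx2, -0.95 to 0.10 for Tubb3, -1.04 to 0.11 for Neurod1, -1.76 to 0.11 for Postn and -1.20 to 0.41 for Tyrobp. The cause of these changes was not tested.

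No paired analysis was possible because CD had 1 library and the groups shared fewer than 2 replicate numbers. With 1 library left in each group there was no residual degree of freedom, so those values carry no test.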
